A study of Mus musculus with 12 samples.

Results

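The change of wild-type mouse embryonic stem cells (mESC) into embryoid bodies (EB) of 2 days was measured in 4 of the study's 12 RNA libraries, chosen by their labels. They are lines 5.3 and 5.16 as mESC and the same lines as EB, with 1 library per line and condition. The study asked how RIF1, a chromatin protein that controls replication timing, acts in cells that choose which X chromosome to silence, and it sequenced total RNA from 4 female lines, whose hybrid background is C57BL/6J-129/SvJ crossed to Mus musculus castaneus. All 4 lines carry the CreERT recombinase, which 4-hydroxytamoxifen (OHT) activates, at 1 Rosa26 allele (Rs26+/CreERT). Lines 5.3 and 5.16 are Rif1+/+, so no floxed Rif1 is present in them, and are called wild type (WT) here. Their mESC libraries were made after 2 days of OHT and their EB libraries after 2 days as EB with OHT given before, so both groups had met OHT. The same lines gave 2 further mESC libraries before OHT, used here as another undifferentiated reference. Lines 15.10 and 16.9, with floxed Rif1 on both alleles (Rif1F/F), gave the knockout (KO) mESC and EB libraries after OHT that are set beside the WT change at the end.

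The medium of the mESC, per the labels, held serum, leukemia inhibitory factor (LIF), the MEK inhibitor PD0325901 and the GSK3 inhibitor CHIR99021. The sources used here do not name the medium of the EB. Run names in the labels differ between the conditions and are shared within each, so the effects of flow cell and condition cannot be told apart in any comparison of EB with mESC. The labels do not say whether the libraries of a line came from separate cultures, so p-values measure only the spread between libraries of different lines within the 6 groups of the fit, which may be technical.

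Mouse embryonic stem cells held with LIF and the inhibitors of MEK and GSK3 are in the naive state, which resembles the epiblast of the blastocyst before implantation. When these signals end, FGF acts through MEK and ERK, the naive transcription factors are lost, and cells pass through a formative state, which resembles the epiblast just after implantation, before the germ layers appear. In female cells both X chromosomes are active in the naive state, and Xist RNA begins to silence 1 of them during this exit.

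Total counts were 64808897 and 52351634 in the mESC libraries of lines 5.3 and 5.16 and 33655462 and 41862643 in their EB libraries. Of 24391 symbols, 17115 passed a filter on low counts and were tested with the quasi-likelihood F test of edgeR, with Benjamini-Hochberg adjustment over all of them. Levels are CPM, counts relative to the library total with TMM scaling between libraries, always given with line 5.3 first. Fold changes of EB against mESC are on the log2 scale, a signed value alone in parentheses after a gene is that log2 fold change, and ± is its standard error. Libraries of 1 group correlated across genes at 0.994 in both groups. The mESC library of line 5.3 differed from the other 3 in Lars2, which held 0.869% of its counts and no more than 0.1405% of theirs, and in a median replication-dependent histone level of 12.7 CPM against 31.0 to 67.3. The 45S ribosomal RNA precursor Rn45s took 4.74% to 7.66% of the counts of the 4 libraries. Because these are bulk samples, fewer cells of a type and less RNA per cell cannot be told apart in any result. Intervals and floors cover counting error only.

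Most expressed genes differed between WT mESC and EB. At an adjusted p under 0.05, 5554 genes (32.5% of those tested) were higher in EB and 5107 (29.8%) were lower, 10661 (62.3%) in all. With a change of at least 2-fold as well, 2635 (15.4%) were higher and 1677 (9.8%) lower, and at least 16-fold changes were called for 307 higher and 86 lower genes. The median log2 fold change over all genes was 0.04. Counts of list members called higher or lower below are to be read beside the shares of all genes, 32.5% and 29.8%. Of the 10661 genes, 10653 moved the same way in both lines, and in 491 the changes of the lines differed by more than 1 on the log2 scale. The libraries of the groups did not overlap for 13578 genes (79.3%), including 4304 of the 4312 called with at least 2-fold.

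**Figure D1:**
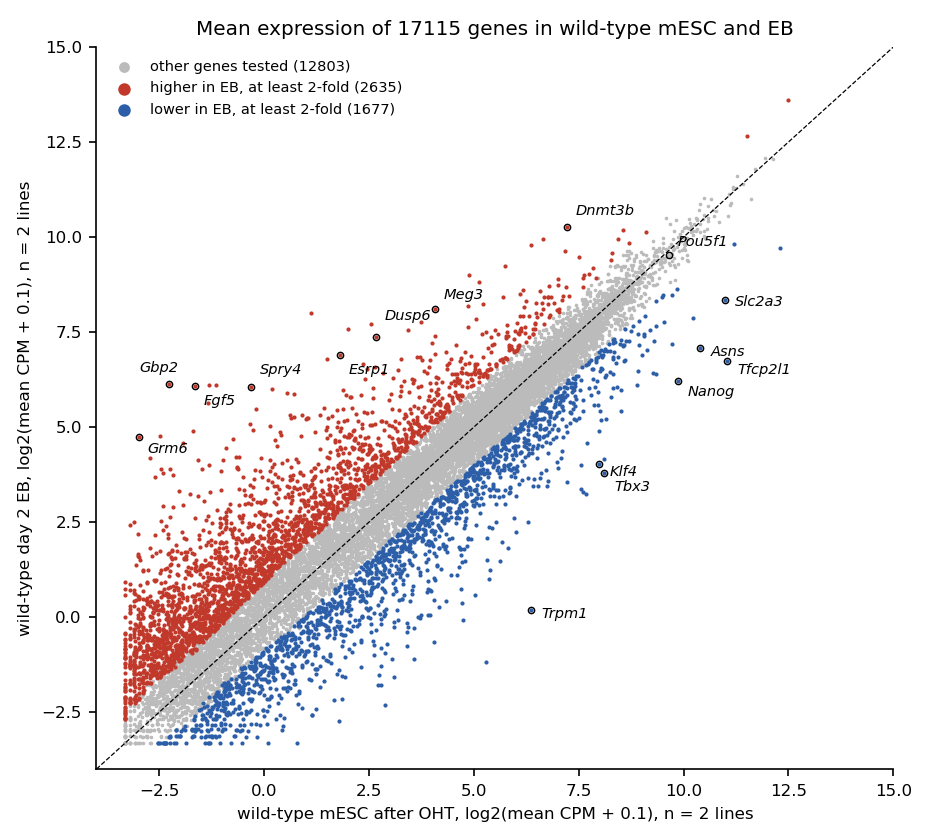
Mean level of each of the 17115 genes tested in WT mESC (horizontal axis) and WT day 2 EB (vertical axis), log2 of the mean CPM over 2 lines with a small offset added. Genes at least 2-fold higher in EB (2635, red) or lower (1677, blue) at an adjusted p under 0.05 are coloured, the dashed line marks equal levels, and Pou5f1 lies near it while Nanog and Tfcp2l1 lie far below and Fgf5 and Gbp2 far above.

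The naive pluripotency network fell. Of 30 genes listed for it, 23 were lower and 5 higher, 20 of them lower by at least 2-fold, with a median log2 fold change of -1.48. Tfcp2l1, a transcription factor kept up by LIF signalling, stood at 2197 and 1965 CPM in mESC and 111 and 101 CPM in EB, a log2 fold change of -4.3 ± 0.09 (adjusted p = 2.45e-16). Nanog, a homeodomain factor of the naive network, stood at 971 and 882 CPM in mESC and 79.7 and 67.7 CPM in EB, a log2 fold change of -3.65 ± 0.09 (adjusted p = 3.16e-15). Both EB libraries lay far below both mESC libraries for these genes. The T-box factor Tbx3 fell from 274 and 276 to 15.3 and 12.4 CPM, by a log2 fold change of -4.32 ± 0.11. Klf4, a Krüppel-like factor, fell from 234 and 276 to 17.6 and 14.9 CPM (log2 fold change of -3.97 ± 0.12). Prdm14, a repressor of FGF signalling and DNA methylation genes, fell from 198 and 178 to 18.3 and 13.8 CPM (log2 fold change of -3.56 ± 0.11). Both lines lost most of the level of all 3 genes, and the groups did not overlap.

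Other naive genes fell less. Esrrb, an orphan nuclear receptor that GSK3 inhibition keeps on, stood at 643 and 610.0 CPM in mESC and 161 and 144 CPM in EB, a log2 fold change of -2.04 ± 0.07 (adjusted p = 1.38e-13). Zfp42 (Rex1), a widely used naive marker, stood at 125 and 123 CPM in mESC and 53 and 50.2 CPM in EB (log2 fold change of -1.27 ± 0.09, adjusted p = 8.61e-10), and Klf2 at 118 and 134 CPM in mESC and 57.2 and 53.6 CPM in EB (log2 fold change of -1.19 ± 0.1). Libraries of the groups did not overlap for any of these, and all 3 remained detected in EB in both lines. Nr5a2, a nuclear receptor that binds the Pou5f1 enhancer, and Tcl1, an AKT cofactor, had log2 fold changes of -3.0 and -2.38. The 5 that rose were Gbx2 (2.16), Mael (1.7), Nlrp14 (0.99), Zscan10 (0.87) and Khdc3 (0.42). Gbx2, a homeobox factor and LIF target, went from 3.51 and 4.14 to 17.3 and 16.9 CPM, and Mael acts in transposon silencing in germ cells. Fgf4, the FGF ligand made by naive cells, was not called at 496 and 467 CPM in mESC and 446 and 442 CPM in EB (adjusted p = 0.127), and neither was Manba.

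Core pluripotency genes moved in both directions against mESC after OHT: of 16 listed, 8 rose and 3 fell, with a median of 0.32, and 5 were lower without mESC replicate 1. Against mESC before OHT 12 rose and 1 fell, with a median of 0.80. Pou5f1 (Oct4), the POU factor needed in naive and primed cells alike, stood at 749 and 860.0 CPM in mESC and 691 and 791 CPM in EB, overlapping ranges with a log2 fold change of -0.12 ± 0.08 (adjusted p = 0.23). Without mESC replicate 1, which is line 5.3, Pou5f1 was called at -0.24 (adjusted p = 0.0264). Sox2, its partner on DNA, fell from 339 and 449 to 222 and 202 CPM (log2 fold change of -0.89 ± 0.11, adjusted p = 1.61e-06). The largest increases were those of the let-7 blocker Lin28a, from 74.1 and 62 to 347 and 379 CPM (log2 fold change of 2.41 ± 0.1), and the cell adhesion molecule Epcam, from 71.7 and 72.3 to 394 and 382 CPM (log2 fold change of 2.43 ± 0.07). Utf1, a chromatin factor of undifferentiated cells, rose by 1.71 log2 units and Tdgf1 (Cripto), the Nodal co-receptor, by 0.88.

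**Figure D2:**
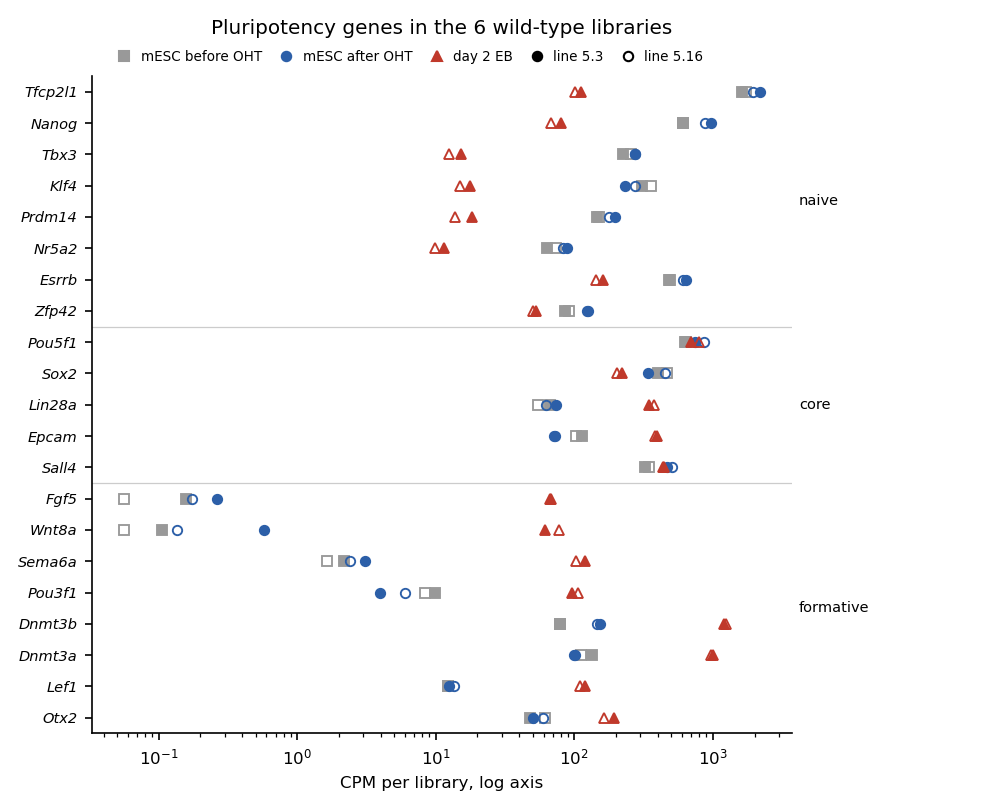
Levels of naive, core and formative pluripotency genes in the 6 WT libraries (CPM, log axis), with grey squares for mESC before OHT, blue circles for mESC after OHT and red triangles for day 2 EB, filled for line 5.3 and open for line 5.16. The EB points lie left of both mESC groups for the naive genes, among or near them for Pou5f1, and right of them for every formative gene drawn, such as Fgf5 at 67.5 and 66.8 CPM.

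Formative and primed epiblast genes rose almost as a block, and the markers read to check the labels lay as labelled, with Pou5f1, Sox2, Nanog, Zfp42, Esrrb and Klf4 well detected in mESC and Fgf5, Otx2, Pou3f1, Dnmt3b and Sox3 higher in EB. All 30 listed genes were tested and called, 28 higher and 2 lower, 25 of them at least 2-fold higher, with a median of 2.74. Fgf5, the classic ligand of the post-implantation epiblast, stood at 0.262 and 0.173 CPM in mESC and 67.5 and 66.8 CPM in EB, a log2 fold change of 8.22 ± 0.17 (adjusted p = 2.45e-16). Pou3f1 (Oct6), a POU factor of the primed epiblast, stood at 3.98 and 5.99 CPM in mESC and 96.9 and 106 CPM in EB (log2 fold change of 4.36 ± 0.14, adjusted p = 4.46e-14). Sema6a, a semaphorin, rose from 3.1 and 2.39 to 120.4 and 103 CPM (log2 fold change of 5.34 ± 0.14). None of these showed overlap between the groups. Otx2, which redirects Pou5f1 to formative enhancers, rose less, from 50.4 and 59.5 to 194 and 165 CPM (log2 fold change of 1.71 ± 0.11, adjusted p = 2.18e-10). Sox3, a SoxB1 factor, rose by 1.99 log2 units, Lef1, a transcription factor of the Wnt pathway, by 3.14, Sall2 by 3.53, the kinase Pim2 by 4.15, Foxp1 by 2.86 and Tcf15, a helix-loop-helix factor of primed cells, by 2.26. The Wnt ligand Wnt8a stood at 0.574 and 0.135 CPM in mESC and 61.7 and 77 CPM in EB (log2 fold change of 7.54 ± 0.24), and its fold change rested on which low mESC library was kept, at 8.94 without replicate 1 and 6.91 without replicate 2. The 2 called lower were Dkc1 and Tead2, of which only 1 was called with any of the 4 WT libraries left out.

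The octamer-like word TTTGCAT, which POU factors such as Pou5f1 are known to bind, was searched on both strands in the 250 bases before each RefSeq start (GRCm38.p6). It was present in 3 of the 20 naive genes with a window (15%), 3 of 21 formative genes (14.3%), 2 of 11 core genes (18.2%) and 4.12% of all 32851 windows, a description from so few matches. Here and for the words searched below, a listed gene was counted if any of its windows held the word. The share of all windows counts each window singly, so it is a different measure. Nanog has 2 windows, and 1 with a match is shown because Nanog fell while Pou5f1 was not called. The match is in capitals at 75 bases before the start, in the window at chr6:122707239-122707488 on the plus strand.
Nanog: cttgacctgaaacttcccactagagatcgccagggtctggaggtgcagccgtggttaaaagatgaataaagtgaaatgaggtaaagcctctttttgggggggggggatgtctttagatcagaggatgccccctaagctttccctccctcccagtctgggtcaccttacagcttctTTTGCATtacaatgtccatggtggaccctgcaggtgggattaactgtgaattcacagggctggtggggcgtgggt

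The de novo DNA methyltransferase genes rose. Dnmt3b, a de novo DNA methyltransferase, stood at 154 and 145 CPM in mESC and 1205 and 1238 CPM in EB, a log2 fold change of 3.03 ± 0.08 (adjusted p = 3.16e-15). Dnmt3a, the other de novo enzyme, stood at 100.1 and 101 CPM in mESC and 996 and 976 CPM in EB (log2 fold change of 3.3 ± 0.08, adjusted p = 3.64e-15). Their cofactor Dnmt3l rose from 150.4 and 139.7 to 787 and 809 CPM (log2 fold change of 2.46 ± 0.07). Both EB libraries lay above both mESC libraries for all 3. The maintenance enzyme Dnmt1 had a log2 fold change of -0.34 (adjusted p = 0.000118), from 832 and 848 to 664 and 664 CPM. Tet2, a dioxygenase that oxidises 5-methylcytosine, fell (log2 fold change -1.61), while its relative Tet1 rose by 0.66 log2 units. Zfp57, which keeps methylation at imprinted regions, fell from 340.0 and 305 to 136 and 117 CPM (-1.35). In the whole list of 18 tested genes 7 rose and 7 fell, with a median of 0.14.

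Most ERK feedback genes rose, while the activity of MEK and ERK itself was not measured. The list's median was 0.79, and 18 of its 24 genes rose and 4 fell. Spry4, a Sprouty inhibitor of receptor signalling, stood at 0.803 and 0.617 CPM in mESC and 68.5 and 65.2 CPM in EB, a log2 fold change of 6.54 ± 0.15 (adjusted p = 1.91e-15). Dusp6, a phosphatase that acts on ERK, stood at 6.77 and 5.72 CPM in mESC and 164 and 166 CPM in EB (log2 fold change of 4.72 ± 0.12, adjusted p = 3.16e-15). Etv4, an ETS factor downstream of FGF, rose from 4.62 and 2.56 to 61.8 and 63.4 CPM (log2 fold change of 4.11 ± 0.19). The groups did not overlap for any of them. Spry2 rose by 1.45 log2 units, Spred3 by 3.13 and the phosphatase Dusp4 by 2.68, while the related ETS factor Etv5 was not called at -0.12.

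The 4 lower genes of the ERK list were Fos, Fosb, Egr1 and Egr2, which are immediate early genes. That family was chosen after its values were seen and split evenly against mESC after OHT. Of 10 tested, 4 fell, 4 rose (Junb, Ier2, Ier3 and Fosl1) and Jun and Egr3 were not called. Fos stood at 76.8 and 24.5 CPM in mESC and 4.28 and 3.43 CPM in EB (log2 fold change of -3.73 ± 0.4), and its value was -2.71 without mESC replicate 1 and -4.33 without mESC replicate 2. Egr1 stood at 28.3 and 4.63 CPM in mESC and 4.94 and 3.95 CPM in EB, so that only the mESC library of line 5.3 was high, and its log2 fold change of -1.91 (adjusted p = 0.00612) was -0.1 (adjusted p = 0.842) without that library, -2.68 (adjusted p = 4.63e-07) without mESC replicate 2 and -1.77 (adjusted p = 0.0583) without EB replicate 2. Egr2 stood at 2.75 and 0.347 CPM in mESC and 0.212 and 0.221 CPM in EB, with -0.7 (adjusted p = 0.435) without mESC replicate 1 and -3.65 without mESC replicate 2 against -2.86 with all. Without mESC replicate 1, 2 genes of the list were lower. Fosb was lower in both EB libraries (9.93 and 4.68 against 0.637 and 0.196 CPM), with values from -3.58 without mESC replicate 1 and -3.55 without EB replicate 2 to -5.23 without EB replicate 1. Among those that rose, Ier2 had a log2 fold change of 0.52 (adjusted p = 0.00119). The value of Junb was 0.77 (adjusted p = 0.00353), with 0.32 (adjusted p = 0.0726) without mESC replicate 1, and that of Ier3 was 0.63 (adjusted p = 0.00263), with 0.48 (adjusted p = 0.0592) without EB replicate 2. Fosl1 stood at 0.148 and 0.154 CPM in mESC and 0.485 and 0.515 CPM in EB (1.71, adjusted p = 0.0173), with 1.65 (adjusted p = 0.0616) without mESC replicate 1, 1.72 (adjusted p = 0.0518) without EB replicate 1, 1.64 (adjusted p = 0.0822) without EB replicate 2 and 1.72 (adjusted p = 0.118) in DESeq2. The mESC library of line 5.3 is the one with the high Lars2 share, and the part of this in the result was not tested. Against mESC before OHT, Fos, Fosb, Egr1 (-2.52) and Egr2 (-3.69) also fell. In that comparison Jun (-1.8, adjusted p = 7.94e-09) and Ier3 (-0.43, adjusted p = 0.023) fell too. Ier2 rose (0.58), and Junb, Fosl1 and Egr3 were not called. Egr1 stood at 16.1 and 34.8 CPM before OHT.

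FGF ligands and receptors did not move as a group: of 17 tested, 6 rose and 6 fell, with a median of -0.13. Fgfr2, a receptor tyrosine kinase, rose from 13.1 and 10.3 to 76.8 and 73.9 CPM (log2 fold change of 2.68 ± 0.1), and the ligand Fgf15 from 1.97 and 1.97 to 37.9 and 37.7 CPM (log2 fold change of 4.26 ± 0.16). The co-receptor Klb and the ligand Fgf10 fell, with log2 fold changes of -2.04 and -3.1.

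In the Nodal pathway, which keeps primed pluripotency and later patterns the embryo, 8 of 18 tested genes rose and 8 fell (median -0.07). Against mESC before OHT 9 rose and 6 fell (median 0.19). The ligand Nodal rose from 119 and 119 to 177 and 201 CPM (log2 fold change of 0.67 ± 0.09, adjusted p = 8.24e-06). Lefty1, a target and inhibitor of Nodal, went from 23 and 34.4 to 265 and 315 CPM (log2 fold change of 3.34 ± 0.17, adjusted p = 1.71e-11). Lefty2 was 135 and 168 CPM in mESC and 183 and 199 CPM in EB (log2 fold change of 0.34 ± 0.13, adjusted p = 0.0269), and it lost its call without mESC replicate 1 at 0.16 (adjusted p = 0.33), without EB replicate 1 at 0.37 (adjusted p = 0.0614) and without EB replicate 2 at 0.25 (adjusted p = 0.207). Foxh1, the DNA-binding partner of SMAD2, rose by 2.29 log2 units. The SMAD corepressor Skil rose by 1.38 log2 units. Pcsk6, a convertase that matures Nodal, fell from 183 and 181 to 39.3 and 36.4 CPM (log2 fold change of -2.27 ± 0.07).

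Wnt and beta-catenin genes split. Of 23, 6 rose and 10 fell, with a median of 0.00. Fzd7, a Wnt receptor, rose from 32.7 and 41.2 to 304 and 297 CPM (log2 fold change of 3.03 ± 0.1) and the ligand Wnt3 from 0.377 and 0.27 to 5.03 and 5.81 CPM (log2 fold change of 4.04 ± 0.25). Among the genes that fell, the log2 fold change was -3.35 for the direct target Sp5, -3.2 for Cdx1, -2.42 for the inhibitor Apcdd1 and -1.44 for the receptor Fzd5. Axin2, a scaffold that beta-catenin induces, stood at 27.5 and 36.7 CPM in mESC and 24.2 and 21.8 CPM in EB (log2 fold change of -0.48 ± 0.14, adjusted p = 0.00575), and it lost its call without mESC replicate 2 at -0.26 (adjusted p = 0.11) and without EB replicate 2 at -0.43 (adjusted p = 0.053).

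LIF and STAT3 genes were lower: 11 of 16 tested fell and 2 rose, with a median of -0.83. Socs3, the feedback inhibitor that STAT3 induces, stood at 57.5 and 58.7 CPM in mESC and 9.7 and 9.64 CPM in EB, a log2 fold change of -2.59 ± 0.09 (adjusted p = 7.76e-14). Bcl3, a nuclear cofactor of NF-kappaB, fell from 17.1 and 19.6 to 2.21 and 2.35 CPM (log2 fold change of -3.0 ± 0.15), and Stat3 itself fell with a log2 fold change of -1.39. The receptor chains Lifr and Il6st had log2 fold changes of -0.72 and -0.8, and the kinase Jak1 of -0.87.

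Of 21 BMP pathway genes, 5 rose and 8 fell, with a median of -0.29. Id1, an inhibitor of helix-loop-helix factors that BMP induces, rose from 6.31 and 5.38 to 35.3 and 48.2 CPM (log2 fold change of 2.83 ± 0.15, adjusted p = 3.5e-11), whereas its relative Id3 was not called (-0.05). The ligand Bmp7, the signal transducer Smad9 and the homeobox factor Msx2 fell, with log2 fold changes of -2.04, -1.84 and -2.95.

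Many interferon-response genes rose. Of 24 tested, 14 rose and 6 fell, with a median of 1.33, and Xaf1, Mx1 and Ifitm2 were among those that fell. Gbp2, an interferon-inducible GTPase that binds guanylate, stood at 0.0983 and 0.116 CPM in mESC and 60.5 and 78.7 CPM in EB, a log2 fold change of 9.31 ± 0.26 (adjusted p = 8.44e-15). It had 6 and 6 counts in the mESC libraries and 1995 and 3210 in the EB libraries for the lines in the same order. Oasl2, a relative of the oligoadenylate synthetases, stood at 0.0983 and 0.0578 CPM in mESC and 24.3 and 30.2 CPM in EB (log2 fold change of 8.37 ± 0.24). Rsad2 (viperin), an antiviral enzyme, rose from 2.38 and 2.47 to 19.2 and 23.6 CPM (log2 fold change of 3.14 ± 0.14), and Irf1, a transcription factor of interferon genes, from 33.3 and 32.8 to 213 and 242 CPM (log2 fold change of 2.78 ± 0.08). Ifit1, an RNA-binding antiviral protein, rose by 5.93 log2 units. In the other direction, Irf9, a DNA-binding factor of the interferon signal, fell from 13.5 and 11.8 to 5.03 and 4.71 CPM (log2 fold change of -1.38 ± 0.14), and the log2 fold change of Stat2, its partner, was -0.57.

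Further guanylate-binding proteins, a family chosen after its values were seen, went the same way. Gbp7 stood at 0.0983 and 0.0771 CPM in mESC and 12.5 and 14.9 CPM in EB (log2 fold change of 7.22 ± 0.28), Gbp3 at 0.0656 and 0.0385 CPM in mESC and 15.3 and 21 CPM in EB (8.34), Gbp4 at 0.656 and 0.463 CPM in mESC and 17.7 and 19.5 CPM in EB (5.03) and Gbp9 at 1.7 and 1.27 CPM in mESC and 9.46 and 9.78 CPM in EB (2.68). Gbp5 and Gbp6 had 0 counts in mESC and 25 and 33 in EB, at least 6.16-fold and 8.11-fold higher against a floor of 3 counts per library. Members of this family are similar in sequence, so reads may have been split between them. The core of the interferon-stimulated response element, searched as TTTC, any 2 bases and TTTC, was found on either strand in the 250-base windows of all 5 Gbp genes that have one, of 8 of 21 interferon-response genes (38.1%) and of 2.98% of all windows. Windows of the 2 Gbp genes named first are shown with the match in capitals, at 59 bases before the start in Gbp2 (chr3:142620413-142620662, plus strand) and 53 bases before it in Gbp7 (chr3:142530086-142530335, plus strand).
Gbp2: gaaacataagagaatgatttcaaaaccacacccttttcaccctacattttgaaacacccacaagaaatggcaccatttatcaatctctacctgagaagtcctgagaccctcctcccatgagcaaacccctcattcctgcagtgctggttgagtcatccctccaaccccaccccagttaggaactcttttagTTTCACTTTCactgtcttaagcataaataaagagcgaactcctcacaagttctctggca
Gbp7: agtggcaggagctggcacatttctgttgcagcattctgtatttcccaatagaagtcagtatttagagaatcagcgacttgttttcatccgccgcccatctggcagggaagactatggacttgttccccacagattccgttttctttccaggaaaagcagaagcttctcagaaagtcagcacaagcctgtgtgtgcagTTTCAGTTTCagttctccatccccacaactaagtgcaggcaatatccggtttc

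Genes of the immunoproteasome and of peptide transport, also chosen after their values were seen, rose beside them, while the class I light chain did not. Psmb10, a catalytic subunit of the immunoproteasome, stood at 5.21 and 5.51 CPM in mESC and 78.7 and 106 CPM in EB (log2 fold change of 4.11 ± 0.14), and Psmb9 at 0.721 and 0.848 CPM in mESC and 6.88 and 9.24 CPM in EB (log2 fold change of 3.37 ± 0.25). Psmb8 had 2 and 5 counts in mESC and 390 and 560 in EB (log2 fold change of 7.61 ± 0.3), with 6.97 without mESC replicate 1 and 8.47 without mESC replicate 2. The peptide transporter genes Tap1 and Tap2 and the loading factor Tapbp rose by 2.06, 4.33 and 2.2 log2 units. The proteasome activators Psme1 and Psme2 rose by 1.26 and 2.1 log2 units. B2m, the light chain of class I molecules, fell from 18 and 16.6 to 8.31 and 9.29 CPM (log2 fold change of -0.97 ± 0.1, adjusted p = 3.07e-07). The response element core was found in 1 of the 8 genes of this family with a window (12.5%).

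**Figure D3:**
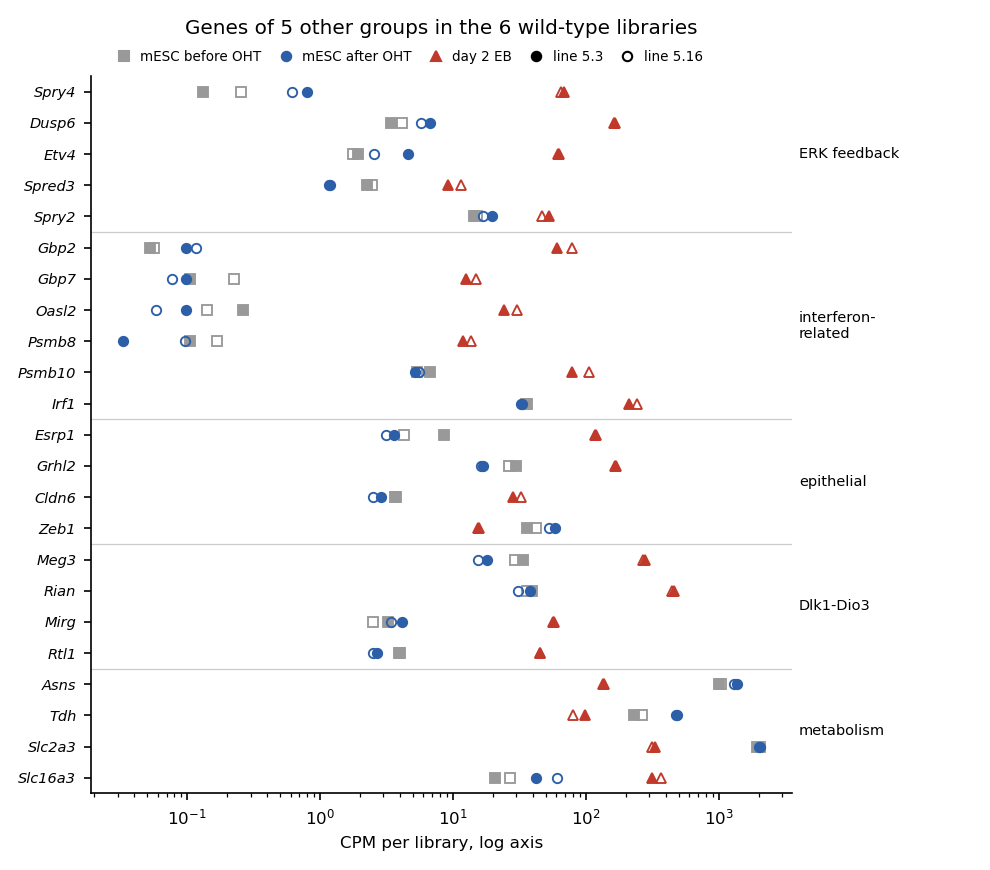
Levels of ERK feedback, interferon-related, epithelial, Dlk1-Dio3 and metabolic genes in the 6 WT libraries (CPM, log axis), drawn as in the plot of pluripotency genes. The EB points lie right of both mESC groups for Spry4, Dusp6, the Gbp and immunoproteasome genes, Esrp1 and Meg3, and left of them for Zeb1, Asns, Tdh and Slc2a3.

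Several microRNA loci rose. The counts are reads of total RNA assigned to the locus, which may come from precursors or host transcripts and do not measure the mature microRNA. The families were chosen after their values were seen, and the mature sequences below, from RefSeq (GRCm38.p6), carry the seed (bases 2 to 8) in capitals and are shown so that seeds can be compared within and between the clusters. In the Mir302 cluster on chromosome 3, which marks primed pluripotency:
miR-302b-3p: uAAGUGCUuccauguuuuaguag
miR-302d-3p: uAAGUGCUuccauguuugagugu
In the Mir106a cluster on the X chromosome, which holds relatives of the cell-cycle Mir17 cluster:
miR-106a-5p: cAAAGUGCuaacagugcagguag
miR-20b-5p: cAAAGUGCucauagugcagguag
miR-18b-5p: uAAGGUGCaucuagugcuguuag
miR-363-3p: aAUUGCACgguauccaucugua
The seed AAGUGCU was shared by the 2 Mir302 products, and AAAGUGC, the same word moved by a base, by miR-106a-5p and miR-20b-5p. The seeds of miR-18b-5p and miR-363-3p were shared with none of the others. On GRCm38.p6, miR-302b-3p lies at chr3:127545275-127545297 and miR-302d-3p at chr3:127545665-127545687 on the plus strand, and miR-106a-5p at chrX:52742541-52742563, miR-20b-5p at chrX:52742159-52742181, miR-18b-5p at chrX:52742381-52742403 and miR-363-3p at chrX:52741697-52741718 on the minus strand.

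Mir302a stood at 0.148 and 0.135 CPM in mESC and 1.33 and 1.77 CPM in EB (log2 fold change of 3.43 ± 0.36, adjusted p = 2.44e-07), and Mir302b at 0.131 and 0.231 CPM in mESC and 1.46 and 1.08 CPM in EB (log2 fold change of 2.8 ± 0.4, adjusted p = 1.05e-05). Mir302c rose by 2.39 log2 units, or 3.13 without mESC replicate 1, while Mir302d and Mir367 were below the filter. Mir18b, in the Mir106a cluster, went from 0.18 and 0.308 to 3.4 and 3.63 CPM (log2 fold change of 3.85 ± 0.28) and Mir20b from 0.213 and 0.116 to 1.18 and 0.932 CPM (log2 fold change of 2.63 ± 0.49). Mir363 rose by 3.57 log2 units, or 2.94 without mESC replicate 1 and 4.45 without mESC replicate 2. Mir106a had 3 counts in mESC and 22 in EB, a ratio of 11.2 (95% counting interval 3.37 to 58.6). Mir290a, of the cluster that marks naive cells, was not called at 2.26 and 1.62 CPM in mESC and 1.7 and 1.89 CPM in EB (adjusted p = 0.678). Mir290b, Mir291a, Mir291b, Mir292, Mir293, Mir294 and Mir295 of that cluster had 0 counts in these mESC and EB libraries, so their change was not measured. Of 146 microRNA symbols tested, 64 rose and 10 fell, with a median of 0.80, against 32.5% of all genes higher and 29.8% lower. The 64 include 37 of the 38 symbols between Meg3 and the end of Mirg on chromosome 12, whose median was 3.95. The counts over all 146 symbols therefore do not describe microRNA loci apart from that region.

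The imprinted Dlk1-Dio3 region on chromosome 12, whose noncoding RNAs come from the maternal allele, rose as a unit at its noncoding genes. Meg3, the first of these RNAs, stood at 18.1 and 15.4 CPM in mESC and 278 and 271 CPM in EB, a log2 fold change of 4.03 ± 0.11 (adjusted p = 5.97e-15). Rian stood at 38.1 and 30.9 CPM in mESC and 463 and 444 CPM in EB (log2 fold change of 3.72 ± 0.09), Mirg at 4.11 and 3.41 CPM in mESC and 56.2 and 58 CPM in EB (log2 fold change of 3.92 ± 0.12) and Rtl1, a retrotransposon-derived gene, at 2.69 and 2.49 CPM in mESC and 45.1 and 44.9 CPM in EB (log2 fold change of 4.12 ± 0.1). Both lines lay within a narrow range in each condition. Of 38 microRNA symbols between Meg3 and the end of Mirg, 37 rose and the other was not called, with a median of 3.95. The protein-coding genes at the ends of the region differed: Dlk1, a Notch-like ligand, rose by 1.99 log2 units, Dio3, a thyroid hormone deiodinase, fell from 3.93 and 2.45 to 0.819 and 1.08 CPM (-1.74), and Begain was not called (-0.03). Whether counting used strand is not given, so reads of Rtl1 and its antisense microRNA transcript cannot be told apart.

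Over all imprinted genes listed, 25 of 42 tested rose and 9 fell, with a median of 0.61. Peg10, a retrotransposon-derived placental gene, rose from 99.6 and 65.6 to 899 and 883 CPM (log2 fold change of 3.43 ± 0.16), and the cyclin kinase inhibitor Cdkn1c from 1.08 and 1.41 to 13.7 and 19.3 CPM (log2 fold change of 3.74 ± 0.24). The growth factor Igf2 rose by 2.06 log2 units and Mest by 2.08. Plagl1, a zinc finger factor, fell from 60.6 and 66.5 to 4.76 and 4.51 CPM (log2 fold change of -3.78 ± 0.11, adjusted p = 1.23e-14). H19 was not called (29.2 and 17.4 CPM in mESC and 30.9 and 25.8 CPM in EB, 0.28), and it was 0.67 (adjusted p = 0.00553) without mESC replicate 1, -0.05 (adjusted p = 0.842) without mESC replicate 2, 0.11 (adjusted p = 0.73) without EB replicate 1 and 0.38 (adjusted p = 0.224) without EB replicate 2.

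At the X-inactivation centre 9 of 14 genes rose and the other 5 were not called, with a median of 1.62. Xist, the RNA that coats the chromosome to be silenced, stood at 35.1 and 42.6 CPM in mESC and 168 and 191 CPM in EB, a log2 fold change of 2.21 ± 0.15 (adjusted p = 5.66e-10). Ftx, a noncoding activator of Xist, rose from 6.18 and 6.05 to 34.1 and 33.8 CPM (log2 fold change of 2.47 ± 0.12). Rlim (Rnf12), the ubiquitin ligase that removes the Xist repressor Zfp42, rose from 409 and 416 to 940.1 and 897 CPM (log2 fold change of 1.15 ± 0.06), and Jpx, another activating RNA, by 3.04 log2 units. Neither EB library overlapped with mESC for these genes. Tsix, the antisense repressor of Xist, was not called at 4.54 and 3.26 CPM in mESC and 5.28 and 4.41 CPM in EB (log2 fold change of 0.3 ± 0.18, adjusted p = 0.149) but was 0.54 (adjusted p = 0.0268) without mESC replicate 1. The transcripts of Tsix and Xist overlap antisense to each other, and their reads cannot be told apart without strand. Zcchc13 had 0 counts in mESC and 34 in EB, at least 8.61-fold higher.

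X-linked genes were called lower more often than higher, but not at 2-fold. Of 679 tested, 197 (29%) were higher and 274 (40.4%) lower, against 32.6% and 29.4% of autosomal genes. By at least 2-fold, 116 (17.1%) were higher and 100 (14.7%) lower, against 15.3% and 9.59% of autosomal genes. The X-linked median minus the autosomal median was -0.17 on the log2 scale, with an SD of 0.05 between the lines. X-linked counts were 5.04% and 5.06% of autosomal counts in mESC and 4.42% and 4.59% in EB, without overlap. The ratio of the X-linked to the autosomal median CPM was 0.752 and 0.694 in mESC and 0.702 and 0.744 in EB, which overlap. With no filter on low counts the difference of medians was -0.025. Of 15 genes listed as escaping X inactivation 5 rose and 5 fell, with a median of 0.05. They included the deubiquitinase Usp9x at 3247 and 3003 CPM in mESC and 2009.7 and 2084 CPM in EB (log2 fold change of -0.61 ± 0.08) and the sugar transferase Ogt (-0.75). Kdm5c and Eif2s3x were not called (-0.05 and 0.05).

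**Figure D4:**
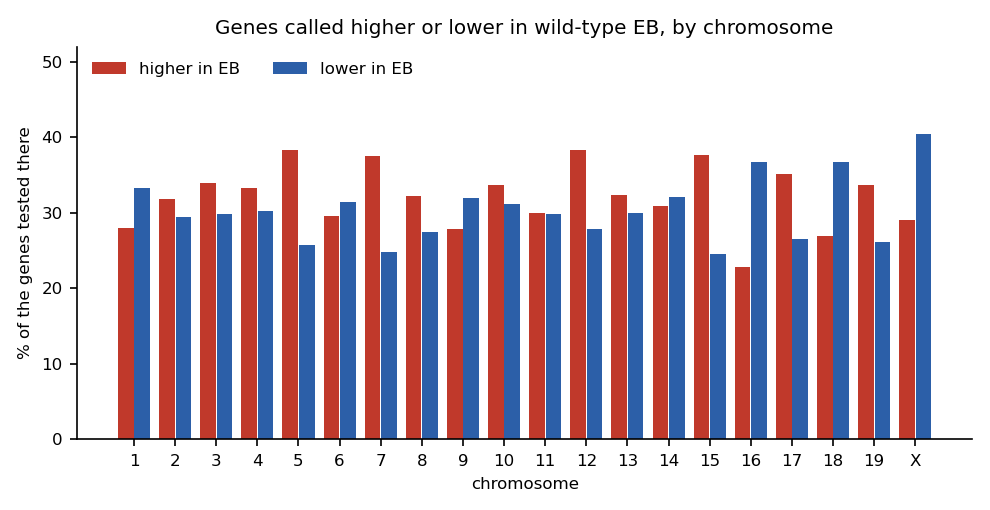
Share of the genes tested on each chromosome that were higher (red) or lower (blue) in WT EB than in WT mESC at an adjusted p under 0.05, in percent. The X chromosome has the highest share of lower genes (40.4% of 679), and chromosome 16 has 22.8% higher and 36.8% lower.

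Among autosomes, chromosome 16 had the lowest share of higher genes, 118 of 517 (22.8%), and 190 lower (36.8%). On chromosome 12, which holds the Dlk1-Dio3 region, 242 of 631 genes (38.4%) were higher, 139 of them (22% of those tested) by at least 2-fold, against 15.4% of all genes. The 242 include 37 microRNA symbols between Meg3 and the end of Mirg, as well as Meg3, Rian, Mirg, Rtl1 and Dlk1. These shares therefore do not describe the chromosome apart from that region.

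Genes known from epithelia and from mesenchyme moved in both directions. Of 26 cadherin and epithelial-to-mesenchymal genes tested, 15 rose and 8 fell, with a median of 0.69. Esrp1, an epithelial splicing factor, stood at 3.62 and 3.16 CPM in mESC and 117 and 119.9 CPM in EB, a log2 fold change of 5.12 ± 0.19 (adjusted p = 3.13e-13). Grhl2, a transcription factor of epithelial enhancers, went from 17 and 16.3 to 167 and 169 CPM (log2 fold change of 3.33 ± 0.15), and the tight junction protein Cldn6 from 2.88 and 2.49 to 28.1 and 32.8 CPM (log2 fold change of 3.5 ± 0.14). E-cadherin (Cdh1) rose from 486 and 449 to 695 and 715 CPM (log2 fold change of 0.59 ± 0.07, adjusted p = 2.13e-06), and N-cadherin (Cdh2) fell from 21.4 and 19 to 8.88 and 8.14 CPM (log2 fold change of -1.25 ± 0.12, adjusted p = 4.89e-08). The E-cadherin repressor Zeb1 fell (log2 fold change -1.83), whereas its relative Zeb2 and the repressor Snai1 rose by 1.33 and 2.05 log2 units. The neural adhesion molecule Ncam1 fell from 77.8 and 78 to 14.7 and 10.6 CPM (log2 fold change of -2.63 ± 0.12).

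Of 28 extracellular matrix and integrin genes, 16 fell and 8 rose, with a median of -0.58. Lama1, a laminin chain of early basement membranes, fell from 257 and 248 to 30.1 and 28.7 CPM (log2 fold change of -3.1 ± 0.09, adjusted p = 8.6e-15), and its partner Nid1 from 619 and 624 to 86.7 and 83.8 CPM (log2 fold change of -2.87 ± 0.07). Fibronectin (Fn1) fell from 2364 and 2333 to 899 and 892 CPM (log2 fold change of -1.39 ± 0.09), and the matrix protein Sparc and the laminin chain Lamc1 fell with log2 fold changes of -1.41 and -1.21. Col18a1, a basement membrane collagen, rose from 324 and 433 to 1114 and 1218 CPM (log2 fold change of 1.62 ± 0.1).

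Germ layer genes moved in both directions and mostly at low levels. Of 25 gastrulation and mesendoderm genes tested, 12 rose and 8 fell, with a median of 0.22. T (brachyury), the factor of the primitive streak, fell from 7.95 and 8.67 to 2.0 and 1.5 CPM (log2 fold change of -2.26 ± 0.18, adjusted p = 9.42e-09), and Eomes, a T-box factor of the same stage, rose from 12.1 and 11.9 to 18.7 and 18.2 CPM (log2 fold change of 0.62 ± 0.12, adjusted p = 0.000178). Mixl1 was not called at 0.672 and 0.713 CPM in mESC and 0.606 and 0.564 CPM in EB. Foxa2, a factor of the anterior streak and endoderm, rose by 2.29 log2 units and Hand1, of lateral mesoderm, by 2.76. Fgf8 went from 0.164 and 0.405 to 4.12 and 7.33 CPM (4.37, and 5.11 without mESC replicate 2). The homeobox genes Nkx1-2 and Cdx1 fell, with log2 fold changes of -4.0 and -3.2. Cdx2 stood at 0.754 and 1.02 CPM in mESC and 0.424 and 0.515 CPM in EB (-0.9, adjusted p = 0.0307) and lost its call without mESC replicate 2 at -0.67 (adjusted p = 0.168), without EB replicate 1 at -0.8 (adjusted p = 0.126) and without EB replicate 2 at -1.08 (adjusted p = 0.0672).

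Of 21 early neural genes 9 rose and 10 fell, with a median of 0.42. Against mESC before OHT 8 rose and 10 fell, with a median of -0.71. Pax6, of neural progenitors, rose from 0.869 and 0.887 to 4.79 and 5.05 CPM (log2 fold change of 2.48 ± 0.23, adjusted p = 4.16e-08), the Notch ligand Dll1 from 1.03 and 1.18 to 26 and 24.3 CPM (log2 fold change of 4.51 ± 0.29) and the neurofilament Nefl from 4.9 and 5.42 to 68.1 and 85.9 CPM (log2 fold change of 3.9 ± 0.14). Dll1 was higher before OHT, at 17 and 12.8 CPM, so its change against that group was only 0.75. Sox1, the earliest neural marker, stood at 5.41 and 5.26 CPM in mESC and 4.15 and 3.97 CPM in EB (-0.39, adjusted p = 0.036). Its call was lost without any of the WT libraries, at -0.4 (adjusted p = 0.0777), -0.41 (adjusted p = 0.0638), -0.45 (adjusted p = 0.0639) and -0.39 (adjusted p = 0.123) without mESC replicates 1 and 2 and EB replicates 1 and 2. Sox21 and Hesx1, also known in naive and epiblast cells, fell, with log2 fold changes of -2.7 and -2.31.

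Primitive endoderm genes did not rise together: 10 of 26 rose and 11 fell. The defining factors stayed low, with Gata6 at 1.0 and 1.02 CPM in mESC and 1.27 and 1.64 CPM in EB (0.54, adjusted p = 0.171). Gata4 stood at 5.0 and 5.99 CPM in mESC and 4.4 and 3.85 CPM in EB (-0.42, adjusted p = 0.0414), and lost its call without mESC replicate 2 at -0.28 (adjusted p = 0.222) and without EB replicate 2 at -0.34 (adjusted p = 0.193). Sox17 stood at 1.05 and 2.27 CPM in mESC and 0.819 and 0.76 CPM in EB (-1.06, adjusted p = 0.00887), with -0.41 (adjusted p = 0.251) without mESC replicate 2 and -1.03 (adjusted p = 0.0594) without EB replicate 2. The 3 factors were at or under 6 CPM in all 4 libraries. Before OHT Gata6 stood higher, at 7.15 and 3.85 CPM, and Gata4 at 12.2 and 10.5 CPM, so that against that group they fell, with log2 fold changes of -1.91 (adjusted p = 1.97e-05) and -1.47 (adjusted p = 5.01e-07). The list's median turned with the reference, from 0.35 against mESC after OHT to -0.64 against mESC before it, with 8 genes higher and 14 lower in the latter. The endocytic receptors Lrp2 and Cubn, which visceral endoderm shares with other epithelia, rose from 56.5 and 50.8 to 568 and 645 CPM (log2 fold change of 3.5 ± 0.11) and from 0.574 and 0.289 to 22.5 and 21.3 CPM (log2 fold change of 5.62 ± 0.21). Of 19 trophoblast genes 9 rose and 7 fell, with a median of 0.62. Against mESC before OHT 8 rose and 8 fell, with a median of -0.29. Gata2 fell from 7.65 and 9.14 to 0.819 and 0.809 CPM (log2 fold change of -3.36 ± 0.17), and Tead4 and Tfap2c fell with log2 fold changes of -2.57 and -1.83. Gata3 was not called at 0.262 and 0.173 CPM in mESC and 0.334 and 0.368 CPM in EB. The summed level of the primitive endoderm list was 2088 and 2146 CPM in mESC and 1593 and 1692 CPM in EB, and that of the trophoblast list 177 and 193 CPM in mESC and 127 and 130.2 CPM in EB.

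Feeder fibroblast markers were read to see whether other cells moved with the groups. Of 20 listed, 15 were tested, 9 rose and 2 fell (1 without mESC replicate 1 and 1 without EB replicate 1), with a median of 1.39. Their summed level was 86.8 and 113 CPM in mESC and 92.5 and 101 CPM in EB, overlapping. The defining collagen Col1a1 stood at 1.56 and 1.41 CPM in mESC and 1.7 and 0.932 CPM in EB and was not called, while Dcn and Col1a2 had 1 count each in mESC and 127 and 42 in EB, ratios of 194 (95% counting interval 34.3 to 7737) and 64.3 (10.9 to 2599). Thy1 rose by 1.18 log2 units and Thbs2, a matrix protein, from 0.738 and 0.944 to 17.5 and 18.6 CPM (log2 fold change of 4.43 ± 0.17). The part of such cells in any result was not tested.

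Most genes of the two-cell-like state rose from very low counts. Of 27 tested, 24 rose and 1 fell, with a median of 3.22, or 2.83 with the 3 genes at 0 in mESC set to their lower bound. Against mESC before OHT, which share the EB libraries, the median was 5.71. The summed level of the list went the other way, from 372 and 344 CPM in mESC to 274 and 242 CPM in EB, most of it Eif1a, a translation initiation factor and the 1 gene that fell (367 and 339.6 to 239.9 and 216 CPM, -0.63). Zscan4d, a zinc finger gene of that state, went from 0.197 and 0.0578 to 3.43 and 2.26 CPM (log2 fold change of 4.37 ± 0.39, and 5.49 without mESC replicate 1). The deubiquitinase gene Usp17le went from 0.328 and 0.173 to 2.49 and 2.53 CPM (log2 fold change of 3.27 ± 0.24) and Gm13119 from 0.361 and 0.251 to 2.7 and 2.26 CPM (log2 fold change of 2.98 ± 0.25). All stood at under 4 CPM in EB, and the Zscan4 and Usp17l genes are near-identical copies whose reads may have been split between them. Germline genes rose in 18 of 35 cases and fell in 9, with a median of 0.23. Against mESC before OHT 14 rose and 16 fell, with a median of -0.22. Dazl, an RNA-binding protein of germ cells, fell from 608 and 687 to 86.5 and 81.7 CPM (log2 fold change of -2.94 ± 0.09, adjusted p = 1.88e-14) and the Piwi protein Piwil2 from 161 and 163 to 55.4 and 66.3 CPM (log2 fold change of -1.41 ± 0.12). Tdrd1, of the same piRNA pathway, rose from 1.75 and 1.68 to 13.6 and 13.8 CPM (log2 fold change of 2.99 ± 0.17).

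Genes of amino acid metabolism leaned lower. Asns, asparagine synthetase, stood at 1380.2 and 1302 CPM in mESC and 136 and 134 CPM in EB, a log2 fold change of -3.31 ± 0.08 (adjusted p = 1.91e-15). Tdh, threonine dehydrogenase, on which mouse embryonic stem cells depend, fell from 480.1 and 483 to 98.2 and 80.4 CPM (log2 fold change of -2.43 ± 0.11), and Psat1, of serine synthesis, from 435 and 400.3 to 152 and 155 CPM (log2 fold change of -1.45 ± 0.07). Both EB libraries lay far below both mESC libraries for all 3. Of 23 amino acid and one-carbon genes 13 fell and 4 rose, with a median of -0.42. Phgdh, the first enzyme of serine synthesis, was not called (-0.03), Atf4 fell (log2 fold change -0.42), and the cystine transporter Slc7a11 rose by 2.68 log2 units. The amino acid response element TGATGAAAC, to which ATF4 is known to bind, was searched on either strand. It was found in 1 of 19 genes of this list with a window (5.26%) and in 0.213% of all windows. That gene is Asns, with its window at chr6:7693210-7693459 on the minus strand and the match in capitals 23 bases before the start.
Asns: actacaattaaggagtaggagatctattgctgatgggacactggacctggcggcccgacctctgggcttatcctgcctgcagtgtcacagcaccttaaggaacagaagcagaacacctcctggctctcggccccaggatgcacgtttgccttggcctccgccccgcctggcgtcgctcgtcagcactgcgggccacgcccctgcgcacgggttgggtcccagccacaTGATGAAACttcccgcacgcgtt

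The 2 main glucose transporter genes moved in opposite directions. Slc2a3 (Glut3), a high-affinity glucose transporter, fell from 2009 and 2040.0 to 329.7 and 318 CPM (log2 fold change of -2.64 ± 0.07, adjusted p = 9.73e-15), while Slc2a1 (Glut1) rose by 0.76 log2 units. The lactate exporter Slc16a3 rose from 42.4 and 60.7 to 313 and 368 CPM (log2 fold change of 2.73 ± 0.14) and Pdk1, which restrains pyruvate oxidation, from 70.9 and 72.6 to 249 and 234 CPM (log2 fold change of 1.75 ± 0.07). Hexokinase 2 (Hk2) and the platelet phosphofructokinase Pfkp fell, with log2 fold changes of -1.15 and -1.22. Over the list 10 of 24 rose and 8 fell, with a median of 0.09. Among 23 hypoxia-response genes 9 rose and 13 fell: Vegfa, the angiogenic ligand, fell from 50.8 and 55.1 to 10.3 and 9.66 CPM (log2 fold change of -2.41 ± 0.09) and Adm, adrenomedullin, rose by 4.82 log2 units. Of 94 nuclear-encoded respiratory chain genes 41 fell and 9 rose, with a median of -0.13, and 5 rose without EB replicate 2. Against mESC before OHT 24 of the respiratory chain genes rose and 23 fell, with a median of 0.04. Cox5a and Cox6b1, subunits of cytochrome oxidase, fell, with log2 fold changes of -1.07 and -1.01 against mESC after OHT. Of 23 cholesterol genes 11 fell and 5 rose (8 without mESC replicate 2), with Stard4, a sterol carrier, at -0.93.

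Of 23 cell cycle regulators 7 rose and 9 fell, with a median of -0.09: Myc rose from 7.82 and 6.01 to 37.1 and 34.1 CPM (log2 fold change of 2.36 ± 0.19), and cyclin D3 (Ccnd3) and Cdk2 fell with log2 fold changes of -1.34 and -0.74. Myc stood at only 0.818 and 1.55 CPM before OHT. Of 26 p53 targets 14 rose and 6 fell, with a median of 0.24, led by the kinase Plk3 (23.2 and 24.5 to 134 and 151 CPM, 2.58). Of 18 retinoic acid genes 9 rose and 5 fell. The receptor Rarg rose from 44.2 and 40.7 to 165 and 164 CPM (log2 fold change of 1.95 ± 0.08) and the binding protein Crabp2 by 2.68 log2 units, while the homeobox factor Meis2 fell (log2 fold change -1.87).

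Of 28 Polycomb genes 11 fell and 8 rose (4 without mESC replicate 1, 5 without EB replicate 1 and 4 without EB replicate 2), 1 of them by 2-fold or more. Suz12, a core subunit of PRC2, fell from 830.3 and 793 to 467 and 441 CPM (log2 fold change of -0.84 ± 0.07). The PRC2 cofactor Mtf2 and the PRC1 ligase Rnf2 fell, with log2 fold changes of -1.06 and -0.79, while Cbx7, a chromobox subunit of PRC1, rose by 0.8 log2 units. Hox genes, which Polycomb silences in stem cells, stood at low levels, and of 34 tested 14 fell and 4 rose, with Hoxc13 at 8.77 and 8.35 CPM in mESC and 1.94 and 1.79 CPM in EB (log2 fold change of -2.2 ± 0.17) and Hoxb9 at 2.84 and 2.49 CPM in mESC and 0.424 and 0.294 CPM in EB. Of 13 genes for RIF1 and its partners 4 rose (2 without EB replicate 2) and 5 fell. Rif1 stood at 1605 and 1455 CPM in mESC and 1382 and 1342 CPM in EB (log2 fold change of -0.17 ± 0.08, adjusted p = 0.0616), and it was called without mESC replicate 2 at -0.24 (adjusted p = 0.018), in DESeq2 at -0.18 (adjusted p = 0.0328) and with no low-count filter at -0.19 (adjusted p = 0.0207). Trp53bp1 (53BP1), which recruits RIF1 to DNA breaks, rose by 0.83 log2 units and Mad2l2, a shieldin subunit, fell (log2 fold change -1.1).

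Replication-dependent histone genes rose in 54 of 58 tested cases and fell in 1, with a median of 1.29, but count and size rested on the mESC libraries. Against mESC before OHT 31 rose and 3 fell, with a median of 0.59, and 15 were at least 2-fold lower in mESC after OHT than before it. Their median level was 12.7 and 31.0 CPM in mESC and 57.9 and 67.3 CPM in EB, and without mESC replicate 2 the median log2 fold change was 2.06. The 1 lower call was lost without EB replicate 1. Hist3h2a stood at 13.4 and 21.5 CPM in mESC and 79.6 and 77.3 CPM in EB (log2 fold change of 2.17 ± 0.15) and Hist1h1t, a testis linker histone gene, at 3.1 and 2.68 CPM in mESC and 19.6 and 20.5 CPM in EB (log2 fold change of 2.79 ± 0.15). Histone mRNAs lack a poly(A) tail and the genes are close copies, so their counts depend on library preparation and read assignment. Rpph1, the RNA of ribonuclease P, was 3244 and 8278 CPM in mESC and 12699.5 and 12267 CPM in EB (log2 fold change of 1.12 ± 0.26, and 1.94 without mESC replicate 2), and Rmrp 1979 and 3851 CPM in mESC and 5939 and 6874 CPM in EB (log2 fold change of 1.14 ± 0.23). Lars2, the mitochondrial leucyl-tRNA synthetase gene, varied within groups, at 9229.5 and 871 CPM in mESC and 1433 and 229 CPM in EB (-2.6, adjusted p = 0.00946). It was -0.1 (adjusted p = 0.906) without mESC replicate 1, -3.47 (adjusted p = 7.19e-05) without mESC replicate 2, -4.49 (adjusted p = 0.00173) without EB replicate 1 and -1.84 (adjusted p = 0.0938) without EB replicate 2. The part of RNA quality or library preparation in these values was not tested.

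Ribosomal protein genes were called higher in 25 of 75 cases and lower in 11, with a median of 0.13, and the higher count was 16 without mESC replicate 1 and 15 without EB replicate 2. Small nucleolar RNAs were mostly not called (13 of 90 higher, 3 lower, median 0.03), and leaving out a library gave 8 higher without mESC replicate 2 or EB replicate 2, and 5 to 7 lower without mESC replicate 2, EB replicate 1 or EB replicate 2. Of 356 Zfp genes 124 rose and 88 fell (median 0.11), with Zfp608 from 0.148 and 0.173 to 24.3 and 23.8 CPM (log2 fold change of 7.21 ± 0.24). Over all genes tested 32.5% were higher and 29.8% lower. The shares of ribosomal protein genes and Zfp genes called higher lay near that of all genes. Of 23 clustered protocadherins tested, 2 fell and the other 21 were not called, while 1 was higher without mESC replicate 1 and 1 lower without mESC replicate 2.

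**Figure D5:**
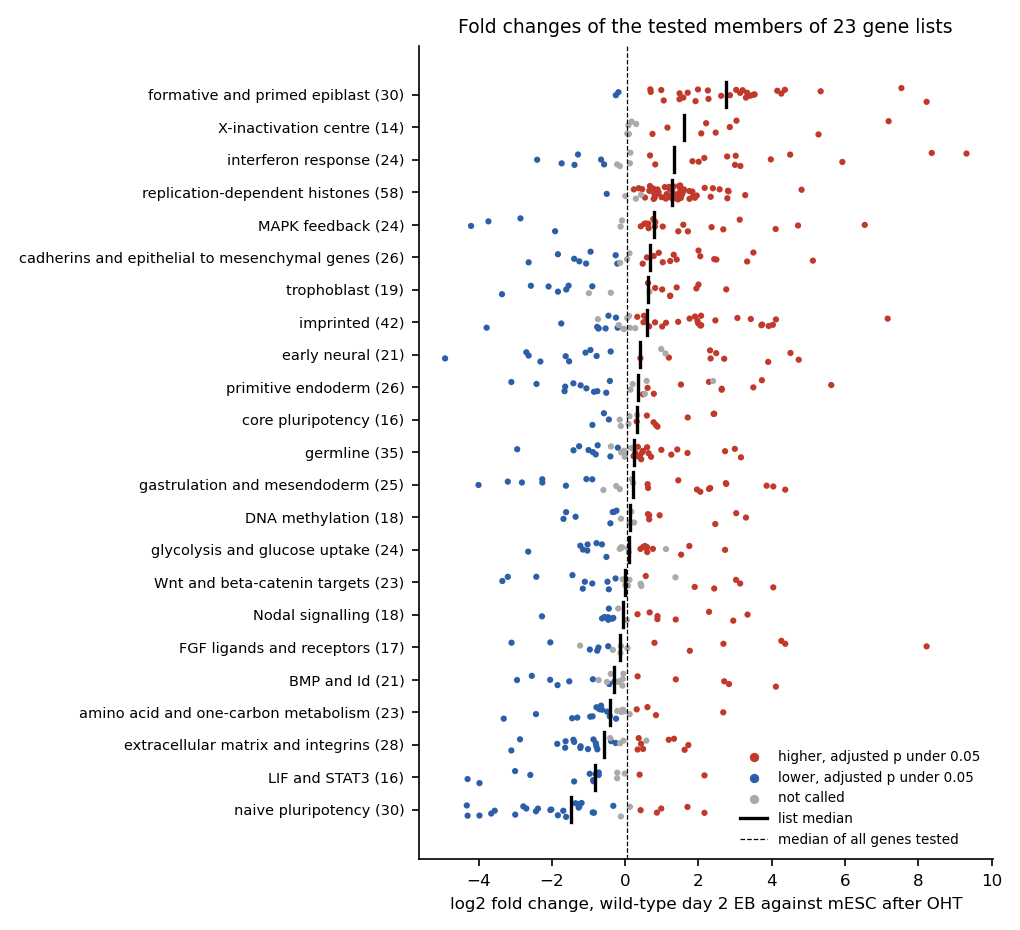
Log2 fold changes of WT EB against WT mESC for the tested members of 23 lists, 1 point per gene, coloured by call, with the number of genes in parentheses. Thick bars mark each list's median, from 2.74 for formative genes at the top to -1.48 for naive genes at the bottom, and the dashed line marks the median of all genes (0.04).

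Some of the steepest changes fell outside these programmes. Grm6, a glutamate receptor known from retinal bipolar cells, had 3 counts in mESC and 1983 in EB, a ratio of 1012 (95% counting interval 346 to 4910). Jakmip2 and Rxrg, a retinoid receptor, had 1 and 2 counts in mESC over both lines and stood at 4.94 and 5.62 and at 4.82 and 6.3 CPM in EB, ratios of 600.0 (interval 107 to 23758) and 318 (interval 87.6 to 2638). Car4, a membrane carbonic anhydrase, went from 0.229 and 0.366 to 46.7 and 52.8 CPM (log2 fold change of 7.39 ± 0.24). Enpp2 (autotaxin), which makes lysophosphatidic acid, went from 0.524 and 0.0771 to 72.3 and 65.7 CPM (log2 fold change of 7.75 ± 0.32, with 9.71 without mESC replicate 1 and 7.03 without mESC replicate 2). Clic5, an intracellular channel protein, went from 0.0492 and 0.116 to 12.8 and 16.7 CPM (7.48, and 8.14 without mESC replicate 2).

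In the lower direction Trpm1, a cation channel known from melanocytes and retina, stood at 82.5 and 82.6 CPM in mESC and 0.97 and 1.1 CPM in EB, a log2 fold change of -6.3 ± 0.12 (adjusted p = 1.22e-16). Stk33, a kinase gene, stood at 39.4 and 39 CPM in mESC and 0.515 and 0.172 CPM in EB (log2 fold change of -6.89 ± 0.24, with -7.84 without EB replicate 1 and -6.26 without EB replicate 2). Spic, an ETS factor, fell from 26.8 and 26.4 to 1.0 and 0.687 CPM (log2 fold change of -5.0 ± 0.18). All 3 were low in both EB libraries and alike in both mESC libraries. Log2 fold changes were -5.13 for the membrane raft protein gene Mal, -4.99 for Sh2d4b, -4.99 for AA467197, -4.89 for Gm694 and -4.89 for the homeobox gene Crxos. Cd3g, a T cell receptor chain, had a log2 fold change of -6.02, with -5.4 without EB replicate 1 and -7.78 without EB replicate 2. Gm13580 had a log2 fold change of -5.1, with -6.11 without EB replicate 2.

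Against the WT mESC before OHT, which share the EB libraries with the comparison above, 11984 genes (70%) were called, 6107 (35.7%) higher in EB and 5877 (34.3%) lower. With at least 2-fold as well, 5191 (30.3%) were called, 2533 (14.8%) higher and 2658 (15.5%) lower. Nanog changed by -3.05, Tfcp2l1 by -4.0, Fgf5 by 9.23, Dnmt3b by 3.95, Dusp6 by 5.45 and Asns by -2.93 in that comparison. Between the 2 undifferentiated conditions 8402 genes (49.1%) were called, 4264 (24.9%) higher and 4138 (24.2%) lower after OHT, and 2060 (12%) by at least 2-fold, 456 (2.66%) higher and 1604 (9.37%) lower. These conditions differ in OHT, in time and in flow cell, which cannot be told apart. The median of the naive list was 0.27 after OHT against before it, that of the formative list 0.02 and that of the ERK feedback list -0.04. Genes of those lists also differed singly between the undifferentiated conditions: Dnmt3l was 61.1 and 56.9 CPM before OHT and 150.4 and 139.7 after it, a log2 fold change of 1.3, and Gata2 was 49.9 and 46.7 CPM before and 7.65 and 9.14 CPM after it (-2.53).

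In the KO lines, in which Rif1 stood at 702 and 662 CPM in mESC and 789 and 845 CPM in EB after OHT, 10100 genes (59%) were called, 5371 (31.4%) higher in EB and 4729 (27.6%) lower, and 2509 (14.7%) were at least 2-fold higher and 1663 (9.72%) at least 2-fold lower. The change of the KO lines differed from that of the WT lines for 4889 genes (28.6%), more positive in KO for 2541 (14.8%) and more negative for 2348 (13.7%). By at least 2-fold it differed for 1597 (9.33%), 789 of them (4.61%) more positive and 808 (4.72%) more negative in KO. Fgf5, Esrrb and Dusp6 were not called in that test: the KO and WT changes were 8.49 and 8.22 (adjusted p = 0.757), -2.04 and -2.04 (adjusted p = 1), and 4.58 and 4.72 (adjusted p = 0.607). A p that misses the threshold does not show that the changes were alike. Nanog changed by -2.4 in KO against -3.65 in WT, a difference of 1.25 ± 0.12 (adjusted p = 9.68e-07). Dazl, at 308 and 268 CPM in KO mESC and 273 and 270.2 CPM in KO EB, changed by -0.08 against -2.94 (adjusted p = 6.36e-11), and T changed by 0.9 against -2.26 (adjusted p = 2.06e-06). Spry2 changed by -0.41 against 1.45 (adjusted p = 4.71e-08). Before OHT, Spry2 already stood at 55.3 and 54.9 CPM in the floxed lines against 14.5 and 15.1 CPM in WT, so the lines differed in it before Rif1 was deleted. These differences lie between 2 pairs of lines, and line and genotype cannot be told apart.

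Some differences, such as those of Meg3 and Rian, were already present in the mESC. Meg3 ended at a like level, 278 and 271 CPM in WT EB and 284 and 295 CPM in KO EB, but started from 18.1 and 15.4 CPM in WT mESC and 120.3 and 143 CPM in KO mESC, so the changes were 4.03 and 1.14 (adjusted p = 3.65e-10). Rian was likewise 38.1 and 30.9 CPM in WT mESC and 188 and 208 CPM in KO mESC, and 463 and 444 CPM in WT EB and 507 and 519 CPM in KO EB. In the floxed lines before OHT Meg3 already stood at 184 and 158 CPM against 33.8 and 29.2 CPM in WT, so the lines differed before Rif1 was deleted. For X-linked genes 247 of 679 changes (36.4%) were more positive in KO and 33 (4.86%) more negative, against 14.0% and 14.1% of autosomal genes. Here KO and WT lay further apart in the EB than in the mESC. The ratio of the X-linked to the autosomal median CPM was 0.775 and 0.761 in KO mESC and 0.752 and 0.694 in WT mESC. In EB it was 1.03 and 1.04 in KO and 0.702 and 0.744 in WT. The X-linked minus autosomal median was 0.27 in KO against -0.17 in WT, and Xist rose by 1.42 log2 units in KO and 2.21 in WT (adjusted p = 0.009).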

How the data were processed

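Total RNA, extracted with RNeasy and treated with DNase per the labels, was sequenced from 12 libraries. The authors deposited a table of raw whole-number counts per gene symbol. The submitters' processing notes name BWA, HTSeq, DESeq2 and the mm9 build without their roles; whether counting used strand is not stated there. Genes passing filterByExpr were fitted with edgeR 4.0.16 (R 4.3.3, TMM normalization) in 1 model of 6 groups over all 12 libraries, whose square root of common dispersion was 0.0717, and tested by quasi-likelihood F tests with Benjamini-Hochberg adjustment. On simulated data for WT EB against WT mESC (17115 genes), 89% of 2-fold and 95% of 4-fold changes were recovered, with 9 false calls. The simulation changed 100 genes per fold size, gave every gene the same dispersion and held no effect of line or flow cell. It therefore gives no error rate for the 10661 calls in the data. Line changes used log2 CPM with a prior count of 2. Libraries of a line come from the same cell line, so a line block was the alternative fit; deviations of the lines from the group means correlated at 0.028 between mESC and EB. Other alternatives changed normalization, filter, tool (DESeq2 1.42.0) and libraries. Members and lists were chosen with earlier results of these data known. Named were 37 preset genes, the 12 steepest and 6 largest CPM changes per direction, up to 4 genes per list by adjusted p and 5 per direction of the KO and WT difference; other genes were chosen after their values were seen. Motif and microRNA sequences came from RefSeq tables of GRCm38.p6, matched by symbol. Symbols of 23175 genes matched RefSeq names, 685 matched synonyms, 436 matched GENCODE names and 95 matched none.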

Additional observations from a re-analysis of the deposited data

Results flagged for a closer look

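The change from mESC to EB differed between the KO and WT lines for 4889 genes by edgeR's interaction test. The 5 with the most positive and the 5 with the most negative difference are given as values, KO minus WT on the log2 scale.

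Phf11a, a gene of the PHD finger family, differed by 7.01 (adjusted p = 7.21e-08), with WT levels of 3.64 and 3.08 CPM in mESC and 0 and 0.0981 CPM in EB and KO levels of 1.69 and 1.85 CPM in mESC and 3.6 and 4.15 CPM in EB. Its WT change of -5.88 was -5.09 without EB replicate 1 and -10.05 without EB replicate 2. Atp4b, a subunit of the proton pump of the stomach, differed by 6.8 (adjusted p = 5.77e-07), with WT levels of 0.164 and 0.173 CPM in mESC and 0.0606 and 0.0981 CPM in EB and KO levels of 1.36 and 1.17 CPM in mESC and 63.4 and 75.5 CPM in EB. 4930550L24Rik differed by 5.32 (adjusted p = 2.14e-14), Abcb5, a membrane transporter, by 5.23 (adjusted p = 0.000148) and Prr18 by 4.86 (adjusted p = 3.74e-08).

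In the other direction Nefm, a neurofilament gene, differed by -6.1 (adjusted p = 2.01e-08), with WT levels of 0.131 and 0.135 CPM in mESC and 3.21 and 4.0 CPM in EB and KO levels of 8.27 and 11.4 CPM in mESC and 4.24 and 3.33 CPM in EB. Pcdh18, a protocadherin, differed by -3.83 (adjusted p = 4.46e-06), Tll1, a secreted protease, by -3.65 (adjusted p = 6.28e-08), Mir668 of the Dlk1-Dio3 region by -3.41 (adjusted p = 4.87e-05) and the kinase gene Tssk6 by -3.38 (adjusted p = 7.36e-05). Tssk6 levels were 0.426 and 0.964 CPM in WT mESC, 2.73 and 2.82 CPM in WT EB, 1.22 and 1.17 CPM in KO mESC and 0.48 and 0.446 CPM in KO EB. Against WT mESC before OHT its WT change was only 0.06 (adjusted p = 0.849). Before OHT, Nefm already stood at 7.9 and 8.99 CPM in the floxed lines against 0.264 and 0.0562 CPM in WT. Tll1 stood at 7.19 and 10.4 CPM against 0.264 and 0.309 CPM, and Mir668 was also higher in both floxed lines. The lines therefore differed in Nefm, Tll1 and Mir668 before Rif1 was deleted. Pcdh18 had few counts in these libraries before OHT, and the levels of Tssk6 overlapped. Line and genotype cannot be told apart in the KO and WT differences given here. No group has enough libraries for a test of single outlying samples.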

How the results depend on the processing

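The 10661 calls of WT EB against WT mESC became 10640 with DESeq2's size factors, 10778 with upper-quartile scaling (6409 higher and 4369 lower), 10979 with no filter on low counts, 9898 at a minimum of 1 CPM, 9931 in DESeq2 and 9791 from the 4 WT libraries alone. With a change of at least 2-fold required the count was 4312, with 2635 higher and 1677 lower. The replicate block on line gave 10490 calls (5481 higher and 5009 lower), 97.6% of the original calls in the same direction, and changed no named call; for EB against mESC before OHT, mESC after against before OHT and the KO against WT difference it gave 11839, 8184 and 4731 calls against 11984, 8402 and 4889. Leaving out 1 WT library gave 8960 to 10073 calls, with 4383 to 5170 higher and 4577 to 4926 lower. The X-linked minus autosomal median of -0.17 was -0.025 with no filter on low counts, a set that adds sparse genes, and -0.18 to -0.14 with a library left out. Of 205 named genes, DESeq2 kept the call and direction of 200, and the libraries left out took the call from 3 to 7. Most named genes were picked for a small adjusted p or a large change in the same fit, so their calls were likely to be kept. Of all 10661 calls, DESeq2 kept 92.8% in the same direction. With 2 lines per group, differences between single libraries of a line cannot be separated from the line. The fold changes of some genes with few counts in mESC, such as Wnt8a and Enpp2, moved by over 1.5 times with a library left out.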
